A study of Mus musculus with 10 samples.

Results

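A set of 10 genes of the vessel wall and of its main growth factor family were followed in gastrocnemius muscle (GAS), namely Pecam1, Cdh5, Kdr, Flt1, Tek, Tie1, Vwf, Eng, Vegfa and Vegfb. They were chosen by symbol from the 21098 genes that the count table covers, and 9 of them had enough counts to be tested among 7813 genes. The muscle came from wild-type male C57BL/6J mice (C57BL/6JBomTac in the study's methods) that had eaten a high-fat diet (D12492i) from 9 weeks of age, for 9 weeks, and that stayed on this diet (diet-induced obesity, DIO). The ASO group (5 libraries) then received an anti-miR-22 antisense oligonucleotide (RES-010), an LNA mixmer, subcutaneously at 10 mg/kg once a week for 14 weeks, and the CTRL group (5 libraries) received 0.9% saline on the same schedule. The design text gives an age of 30 weeks at the end, which is less than these steps add up to. The labels give a weight over 40 g before dosing, but the study's weight records list lighter CTRL mice, and the ASO mice were on average the heavier ones at the first dose, so starting weight and treatment cannot be told apart. There was no group with an oligonucleotide of another sequence, so an effect of the miR-22 target and one of any LNA oligonucleotide cannot be told apart. The question was what inhibition of miR-22 does to the transcriptome of obese muscle.

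Endothelial cells line every vessel, and the capillaries that run along muscle fibers hold most of those in a muscle. Muscle fibers and other cells release Vegfa, which binds the tyrosine kinase receptors Kdr (VEGFR2, the main signaling receptor) and Flt1 (VEGFR1, which binds Vegfa tightly but signals weakly and also binds Vegfb). Tek (Tie2) is the receptor of the angiopoietins and Tie1 is its orphan partner. Cdh5 (VE-cadherin) and Pecam1 hold endothelial cells together, Eng (endoglin) is a co-receptor for BMP and TGF-beta ligands, and Vwf is the clotting protein stored in endothelial granules. In whole muscle, fewer endothelial cells and less RNA per endothelial cell cannot be told apart.

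The microRNA that the oligonucleotide targets is shown because the members can be read against its seed. Bases 2 to 8, the seed, are in capitals, and the sequence is that of RefSeq (GRCm38.p6, chr11:75463772-75463793, plus strand):

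miR-22-3p: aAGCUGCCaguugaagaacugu

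The match to this seed, GGCAGCT, and the shorter-offset match GCAGCTA, which pairs with bases 2 to 7 and has an A opposite base 1, were searched on the transcript strand of annotated 3′UTRs (GENCODE M39, GRCm39). The result depended on which 3′UTR stood for a gene. With each gene represented by its longest 3′UTR, which was searched first, 2 of 10 members held GGCAGCT (Tie1 with 2 copies and Eng with 1), against 21.7% of the 7781 tested genes with a 3′UTR. In the 3′UTR of the canonical transcript, a definition that was added after that result had been seen, 0 of 10 members held it, against 17.8% of 7740 tested genes. GCAGCTA was found in Kdr in both searches and in Vwf in the canonical 3′UTR, against 12.9% and 10.1% of tested genes. The matches are printed with the matched bases in capitals, because they are the stretches of the members that pair with the seed:

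Kdr, both definitions, chr5:76093648-76093669, minus strand: ctttcatggaatatGCAGCTAt

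Vwf, canonical, chr6:125663503-125663517, plus strand: ggcctgtGCAGCTAc

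Tie1, longest, chr4:118335744-118335765, minus strand: gtccgagaaagccgGGCAGCTg

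Tie1, longest, chr4:118332675-118332696, minus strand: cacactcagctctcGGCAGCTg

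Eng, longest, chr2:32572786-32572807, plus strand: atccaggctgctcaGGCAGCTg

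The Kdr match lies inside the stretch of Kdr that was counted. The Tie1 and Eng matches lie outside the canonical 3′UTRs of these genes, which have 333 and 1097 bases, while the longest have 2240 and 3088. These are matches of letters in a window and do not show a site that is used.

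The table counts read pairs on a segment of at most 500 bp at the end of each transcript's 3′UTR, and pairs on bases shared by several such segments were not counted, so a low count does not show a silent gene. Pecam1 is the case in point. Of its 5 segments, 4 overlap each other almost fully and hold 0 counts, and the remaining one (chr11:106552623-106552782, 160 bp, outside the exons of the canonical transcript) holds 5 counts over all 10 libraries. No statement on Pecam1 can be made from these data. The other members were counted at 1 main end each, except Flt1, which has 2. Library totals lay between 1606909 and 2116720 counts in CTRL and between 2239186 and 2632560 in ASO, so every ASO library was the deeper one.

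The place of the counted end also separated the groups. Over 1260 genes with counts both at the distal end and at least 1000 bp upstream of it (Flt1 left out), the median log2 ratio of upstream to distal counts was between -0.43 and 0.59 in CTRL and between -1.77 and -1.18 in ASO, a difference of -1.47 (exact permutation test, two-sided, p = 0.0079, the smallest that 5 against 5 allows). Genes counted mainly at their distal end had a median log2 fold change of 0.12 (4564 genes), and those counted mainly 1000 bp or more upstream one of -0.45 (1881 genes), of which 39% were called lower and 4.89% higher. Since no ASO library overlapped a CTRL library in this ratio, where the reads fell along transcripts and an effect of treatment on a level cannot be told apart. Among the members, Cdh5, Kdr, Flt1, Tie1 and Vegfb were counted mainly at the distal end, Vwf 7 bp, Tek 294 bp, Eng 551 bp and Vegfa 1550 bp upstream of it.

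None of the 9 members tested passed the threshold (edgeR quasi-likelihood test, Benjamini-Hochberg adjusted p under 0.05 over all 7813 genes), while 29.2% of all genes tested did (11.8% higher and 17.4% lower in ASO). The other tools called 1 (DESeq2, Eng) and 0 (limma-voom) members. An unadjusted p under 0.05 was reached by 2 of 9 members, Flt1 and Eng, and by 41.2% of all genes tested. The groups overlapped for each of the 9 members, while they did not overlap for 21.4% of all genes (7.97% higher in ASO). Fitted values were positive for 6 members and negative for 3, with a median log2 fold change of 0.3 beside -0.03 over all genes. Genes counted mainly at the distal end, as Cdh5, Kdr, Flt1, Tie1 and Vegfb were, had a median of 0.12.

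**Figure D1:**
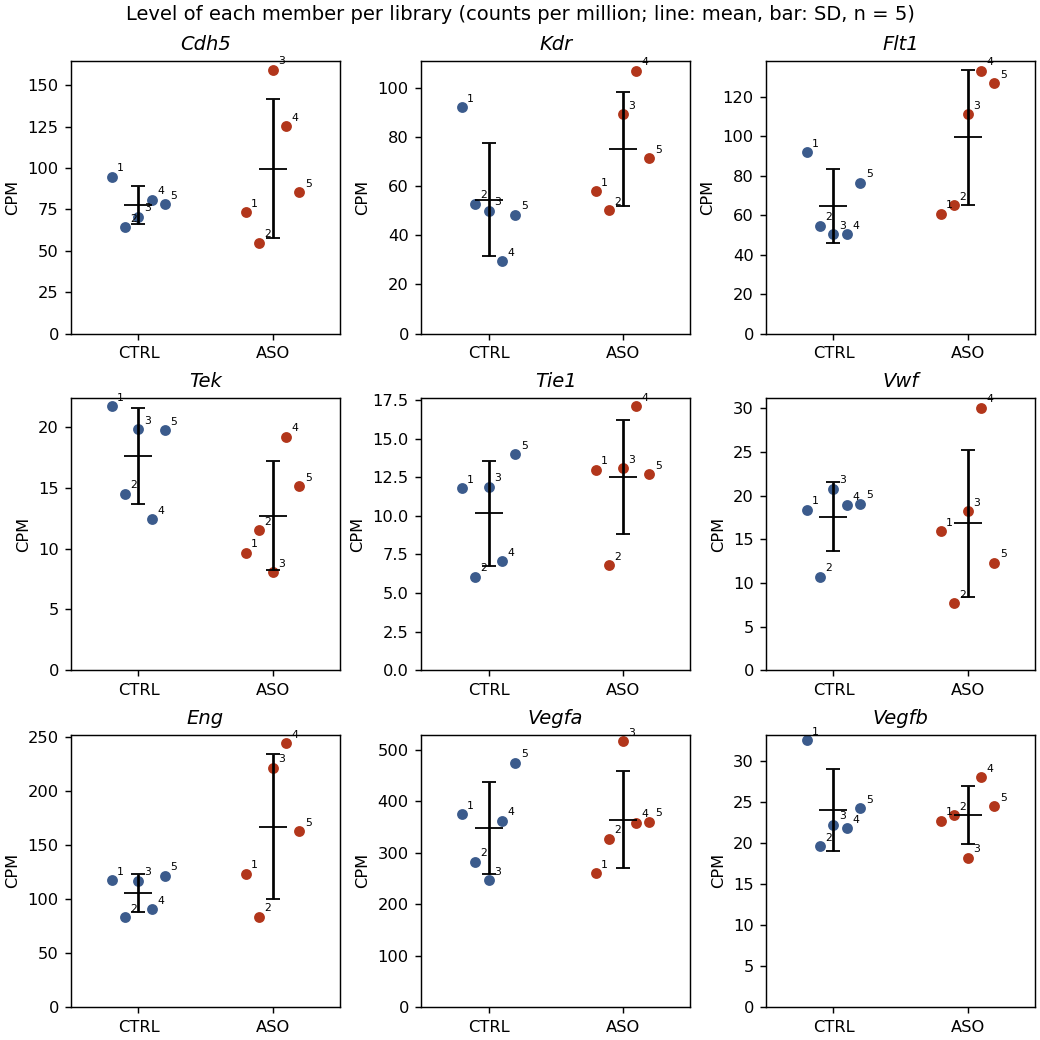
Level of each tested member in CPM (vertical axis from 0) in the 5 CTRL (blue) and 5 ASO (red) libraries, with replicate numbers, the mean (line) and the SD (bar). The groups overlap in every panel, and ASO 3 and ASO 4 hold the highest Eng levels, 221.2 and 243.8 CPM.

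Levels between genes are compared per kb of bases that only the main counted segment holds, as mean ± SD over 10 libraries, in CPM (counts per 1000000 of the TMM-scaled library total). Vegfa stood highest at 1237.1 ± 301.3 CPM per kb, followed by Eng at 271.7 ± 111.3, Vegfb at 186.7 ± 32.3, Cdh5 at 177.4 ± 62.8, the distal end of Flt1 at 133.5 ± 55.4, Kdr at 129.6 ± 48.5, Tie1 at 66.8 ± 21.1, Tek at 58.9 ± 18.5 and Vwf at 45.8 ± 16.5. Vegfa was apart from Eng by more than the sum of their SDs, while all other neighbours in this order lay within that sum. Read pairs that reach past the counted bases make the values of short segments, such as the 127 bp of Vegfb, the less exact ones.

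Vegfa, the ligand that drives capillary growth, did not differ detectably between the groups. It was counted on chr17:46329469-46329783 (minus strand, within an exon of the canonical transcript). The levels were 374.5, 282.6, 246.1, 362.3 and 474.7 CPM in CTRL 1 to 5, and 259.8, 327.6, 516.4, 358.6 and 360.3 CPM in ASO 1 to 5. ASO 3 was the highest library, CTRL 3 the lowest, and the rest were intermixed. The log2 fold change was 0.07 ± 0.21 (SE, 95% interval -0.39 to 0.53, edgeR adjusted p = 0.83), and its sign turned with scaling by total counts (-0.11). Vegfb, the ligand that binds Flt1 alone among the VEGF receptors, was counted on chr19:6959841-6960340 (minus strand). It lay at 32.5, 19.6, 22.2, 21.8 and 24.2 CPM in CTRL 1 to 5 and at 22.7, 23.4, 18.2, 28.0 and 24.5 CPM in ASO 1 to 5. CTRL 1 was the highest and ASO 3 the lowest, with a log2 fold change of -0.05 ± 0.19 (SE, interval -0.45 to 0.36, edgeR adjusted p = 0.88). It was -0.29 (edgeR adjusted p = 0.32) in the fit on the most distal segments, which holds the same Vegfb counts, and 0.04 with upper-quartile scaling. The interval leaves room for a fold of 0.733 to 1.28 for Vegfb and of 0.762 to 1.44 for Vegfa. Within a library, the log2 ratio of Vegfa to Vegfb counts was 3.82 ± 0.35 (SD, n = 5) in CTRL and 3.93 ± 0.51 in ASO (exact permutation test, two-sided, p = 0.75, adjusted over 4 ratios 0.75).

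Among the VEGF receptors, Kdr was counted on chr5:76093487-76093986 (minus strand, in the 3′UTR). CTRL 1 to 5 held 92.0, 52.7, 49.9, 29.5 and 48.3 CPM and ASO 1 to 5 held 57.9, 50.1, 89.2, 106.9 and 71.2 CPM. CTRL 1 lay above all ASO libraries except ASO 4, and CTRL 4 was the lowest of all. The log2 fold change of Kdr was 0.46 ± 0.28 (SE, interval -0.15 to 1.07, edgeR adjusted p = 0.24), and it was 0.73 without CTRL 1 (adjusted p = 0.044). No other library left out brought Kdr past the threshold (edgeR adjusted p up to 0.44). In the fit on the most distal segment of each gene, which holds the same Kdr counts, its log2 fold change was 0.21 (edgeR adjusted p = 0.63). Flt1 lay at 92.0, 54.6, 50.4, 50.2 and 76.4 CPM in CTRL 1 to 5 and at 60.8, 65.0, 111.2, 133.2 and 126.9 CPM in ASO 1 to 5. ASO 3, 4 and 5 were above every CTRL library, and ASO 1 and 2 were among the CTRL libraries. The log2 fold change of Flt1 was 0.62 ± 0.26 (SE, interval 0.06 to 1.18, edgeR adjusted p = 0.090), and the exact permutation test of its level gave p = 0.087 (two-sided, adjusted 0.33 over 9 members). Leaving out ASO 1, ASO 2 or CTRL 1 brought its adjusted p to 0.039, 0.047 and 0.042. Leaving out any other library did not bring Flt1 past the threshold (edgeR adjusted p up to 0.19). The log2 ratio of Flt1 to Kdr counts within a library was 0.30 ± 0.38 (SD, n = 5) in CTRL and 0.38 ± 0.28 in ASO (exact permutation test, p = 0.69, adjusted 0.75).

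Flt1 transcripts end at 2 places. The distal end (Flt1-202, chr5:147498414-147498913, minus strand, 30 exons) belongs to the receptor that spans the membrane and held 81.6% of Flt1 counts. The proximal end (Flt1-203, chr5:147571969-147572468, minus strand, 13 exons, 73555 bp upstream and outside the exons of the canonical transcript) is that of the short form, which lacks the membrane span and the kinase and is secreted as a trap for Vegfa. This stretch lies within the span of the canonical transcript, between its exons, so its counts need not all come from the short form. The distal end lay at 79.9, 41.7, 38.1, 37.6 and 53.7 CPM in CTRL 1 to 5 and at 53.4, 54.5, 98.7, 110.5 and 108.6 CPM in ASO 1 to 5, again with ASO 3, 4 and 5 above all CTRL libraries. Its log2 fold change was 0.76 ± 0.27 (SE, interval 0.17 to 1.35) and it passed the test across 10652 segments (edgeR adjusted p = 0.040), in which 40.6% of all segments passed and 16% were higher. That call was lost with total counts (adjusted p = 0.14) and when any of ASO 3, ASO 4, ASO 5 or CTRL 2 to 5 was left out (adjusted p up to 0.10), and the exact permutation test gave p = 0.063. A further fit used each gene's most distal segment with bases of its own, some of which lie upstream (Cd34 at 2729 bp). There the Flt1 value was 0.46 (edgeR adjusted p = 0.26). The proximal end lay at 10.7, 11.9, 12.4, 12.3 and 23.2 CPM in CTRL 1 to 5 and at 7.77, 10.6, 18.2, 27.2 and 20.7 CPM in ASO 1 to 5, with a log2 fold change of 0.27 ± 0.34 (SE, adjusted p = 0.55).

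The share of Flt1 counts on the proximal end was 11.8, 22.2, 24.5, 24.7 and 30.1% in CTRL 1 to 5 and 12.7, 16.3, 15.6, 19.7 and 16% in ASO 1 to 5. These shares rest on 85 to 319 counts per library, and the exact 95% binomial interval, which covers counting error only, ran from 22.6 to 38.6% for CTRL 5 and from 11.8 to 20.9% for ASO 5. CTRL 1 was the lowest library, and the other CTRL libraries lay above all ASO libraries. The log2 ratio of proximal to distal counts was -1.81 ± 0.63 (SD, n = 5) in CTRL and -2.38 ± 0.26 in ASO, a difference of -0.57 (exact permutation test, two-sided, p = 0.12, adjusted 0.24). Without CTRL 1 it was -0.83 (exact permutation test, adjusted p = 0.032). Removing the 1 CTRL library that did not lie above all ASO libraries had to leave the groups apart, so this value adds no support. The difference of -0.57 has the sign of the difference of -1.47 in upstream over distal counts over all genes, and the 2 cannot be told apart.

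**Figure D2:**
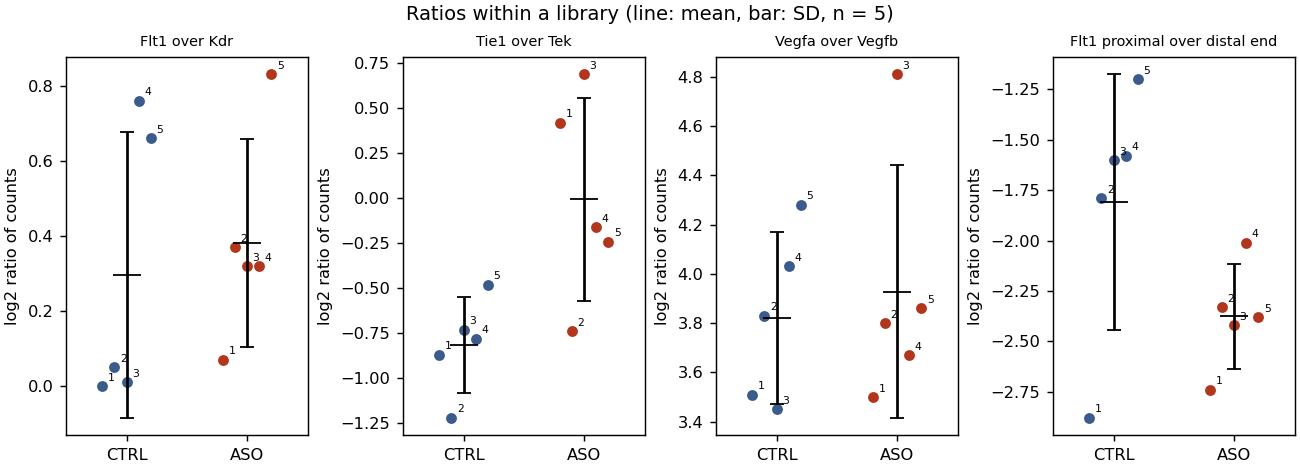
Log2 ratio of counts within each library (vertical axes do not start at 0) for Flt1 over Kdr, Tie1 over Tek, Vegfa over Vegfb and the proximal over the distal end of Flt1, with CTRL in blue, ASO in red, the mean (line) and the SD (bar). For Tie1 over Tek, 4 of 5 ASO libraries lie above all CTRL libraries, and for the Flt1 ends CTRL 1 alone lies below the ASO libraries.

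The angiopoietin receptors had fold changes of opposite sign, and neither passed the test. Tek was counted on chr4:94762420-94762919 (plus strand) at 21.7, 14.5, 19.8, 12.4 and 19.7 CPM in CTRL 1 to 5 and at 9.66, 11.5, 8.04, 19.2 and 15.1 CPM in ASO 1 to 5. ASO 1, 2 and 3 were below every CTRL library, and the log2 fold change was -0.47 ± 0.27 (SE, interval -1.05 to 0.11, edgeR adjusted p = 0.21). Tie1 was counted on chr4:118328388-118328887 (minus strand) at 11.8, 6.06, 11.9, 7.08 and 14.0 CPM in CTRL 1 to 5 and at 13.0, 6.80, 13.1, 17.1 and 12.7 CPM in ASO 1 to 5. CTRL 2, CTRL 4 and ASO 2 were low and the rest close together, with a log2 fold change of 0.30 ± 0.30 (SE, interval -0.35 to 0.96, edgeR adjusted p = 0.48). In the fit on the most distal segments, which holds the same Tie1 counts, the Tie1 value was 0.04 (edgeR adjusted p = 0.95). It was 0.12 with total counts, and 0.17 to 0.48 with a library left out. Both genes rest on few counts, 19 to 46 per library for Tek and 12 to 41 for Tie1. Within a library, the log2 ratio of Tie1 to Tek counts was -0.81 ± 0.27 (SD, n = 5) in CTRL and -0.01 ± 0.57 in ASO, a difference of 0.81. ASO 2 at -0.74 was the 1 ASO library within the CTRL range of -1.22 to -0.48. The exact permutation test gave p = 0.024 (two-sided) and 0.095 when adjusted over 4 ratios, so it missed the threshold. Without ASO 2 the difference was 0.99 (exact permutation test, adjusted p = 0.032). Removing the 1 ASO library within the CTRL range had to leave the groups apart, so this value adds no support.

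Eng had the largest log2 fold change of the 9 members. It was counted almost wholly (99.7%) on chr2:32571631-32572130 (plus strand), in exons of the canonical transcript. CTRL 1 to 5 held 117.0, 83.0, 116.6, 90.3 and 121.3 CPM and ASO 1 to 5 held 123.1, 83.3, 221.2, 243.8 and 162.2 CPM. All ASO libraries but ASO 2 were above the CTRL libraries, ASO 1 only just. The log2 fold change was 0.66 ± 0.26 (SE, interval 0.10 to 1.22, a fold of 1.07 to 2.33, edgeR adjusted p = 0.072). Eng was called by DESeq2 (0.69, adjusted p = 0.039, where 10.8% of genes were called higher) and with upper-quartile scaling (0.75, adjusted p = 0.043, 16.2% called higher). It was not called by limma-voom (0.57, adjusted p = 0.12) or with total counts (edgeR adjusted p = 0.21). With each library left out in turn, its edgeR adjusted p ran from 0.013 to 0.15. Only 1 of these fits passed, that without ASO 2 (0.84), the ASO library with the lowest Eng level. The exact permutation test of the Eng level gave p = 0.11.

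Cdh5, the junction cadherin by which endothelial cells are usually recognised, was counted on chr8:104870644-104871143 (plus strand). It lay at 94.8, 64.4, 70.7, 80.8 and 78.1 CPM in CTRL 1 to 5 and at 73.4, 54.8, 159.4, 125.2 and 85.4 CPM in ASO 1 to 5. ASO 3 and 4 were the highest and ASO 2 the lowest, so the SD was 42.2 in ASO and 11.5 in CTRL around means of 99.6 and 77.7. The log2 fold change was 0.36 ± 0.25 (SE, interval -0.19 to 0.91, edgeR adjusted p = 0.31), and 0.15 (0.63) without ASO 3. In the fit on the most distal segments, which holds the same Cdh5 counts, it was 0.09 (edgeR adjusted p = 0.83). Vwf was counted mainly on chr6:125663136-125663635 (plus strand, partly in an exon of the canonical transcript). It lay at 18.4, 10.7, 20.8, 18.9 and 19.1 CPM in CTRL 1 to 5 and at 15.9, 7.65, 18.2, 30.1 and 12.3 CPM in ASO 1 to 5. ASO 4 was the highest and ASO 2 the lowest, and the log2 fold change was -0.06 ± 0.32 (SE, interval -0.76 to 0.65, edgeR adjusted p = 0.91), with a sign that turned under upper-quartile scaling (0.03).

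**Figure D3:**
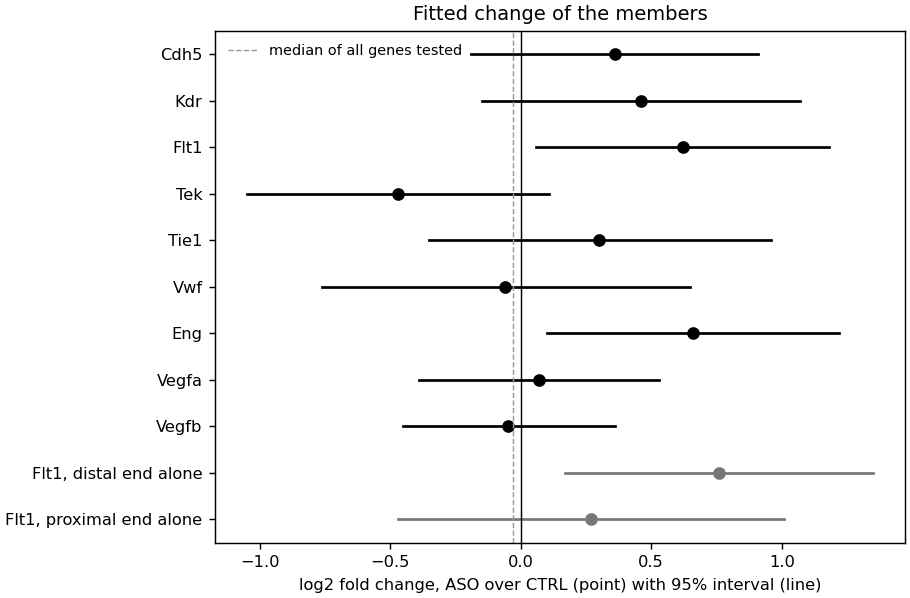
Log2 fold change of ASO over CTRL (horizontal axis) with its 95% interval for the 9 tested members (black) and each Flt1 end (grey), with the median of all genes as a dashed line at -0.03. The intervals of Flt1, Eng and the distal Flt1 end lie above 0, and the others include it.

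The deviations of 6 endothelial members from their group means were averaged in each library, as a description. The mean deviation of Cdh5, Kdr, Flt1, Tek, Tie1 and Eng from their own group mean, on the log2(CPM + 1) scale, was -0.30, -0.59, 0.23, 0.54 and 0.12 in ASO 1 to 5 and 0.40, -0.26, 0.02, -0.35 and 0.18 in CTRL 1 to 5. Pearson's r with this mean over 10 libraries, also a description, was 0.927 for Eng, 0.899 for Flt1, 0.86 for Kdr, 0.841 for Tie1, 0.79 for Cdh5 and 0.619 for Tek. Each of these is part of the mean, which raises its r. For members outside the mean, r was 0.738 for Vwf, 0.488 for Vegfb and 0.459 for Vegfa. Among 7738 genes whose mean over libraries was 10 counts or more, Eng ranked 5 in this r, Flt1 12, Kdr 34, Tie1 63 and Cdh5 123. Vwf ranked 218, Tek 547, Vegfb 1046 and Vegfa 1163, so genes outside the members stood above each of them. Those most like the mean apart from members were Fam89a (0.946), Zfp36l1 (0.932), Clip3 (0.932), Sox7 (0.93) and Adgrl4 (0.927). Sox7 is an endothelial transcription factor and Adgrl4 an adhesion receptor of endothelial cells. Of these 5 genes, Zfp36l1 passed the test between groups (log2 fold change -0.43, edgeR adjusted p = 0.039) and Sox7 (0.68, adjusted p = 0.12) and Adgrl4 (-0.03, adjusted p = 0.95) did not.

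Oxidative slow fibers carry more capillaries than glycolytic ones, so the level of slow fiber genes is given beside these values. The mean log2(CPM + 1) of 9 slow fiber genes with counts (of 12, a list chosen after the data had been seen, with Tnnt1, Casq2 and Csrp3 at 0) was 2.40, 2.40, 6.79, 8.95 and 5.67 in ASO 1 to 5 and 7.32, 5.15, 5.06, 6.19 and 3.06 in CTRL 1 to 5. Within ASO, libraries 1 and 2 were lowest in slow fiber genes and libraries 3 and 4 highest, and ASO 3 and 4 were also the highest for Eng and Cdh5. Within CTRL there was no such order, since CTRL 1 was the highest CTRL library in slow fiber genes, Kdr and Flt1, CTRL 4 at 6.19 had the lowest Kdr and Flt1 levels of all 10 libraries, and CTRL 5 at 3.06 had the second highest CTRL level of Flt1 and the highest of Eng. Of the slow fiber genes, 1 of 8 tested was called higher (Myl6b, 1.72, edgeR adjusted p = 0.037) and 0 lower. That is 12.5% called, beside 29.2% of all genes (11.8% higher), and DESeq2 and limma-voom called 0. Myl6b lay at 192.5 CPM in ASO 4 and between 28.8 and 38.1 CPM in the other ASO libraries. With this level as a covariate, which was added after seeing the data, the log2 fold changes were 0.57 for Eng (edgeR adjusted p = 0.048, in a fit that called 12.7% of genes higher), 0.57 for Flt1 (0.056), 0.44 for Kdr (0.14), 0.31 for Cdh5 (0.23) and -0.48 for Tek (0.18).

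**Figure D4:**
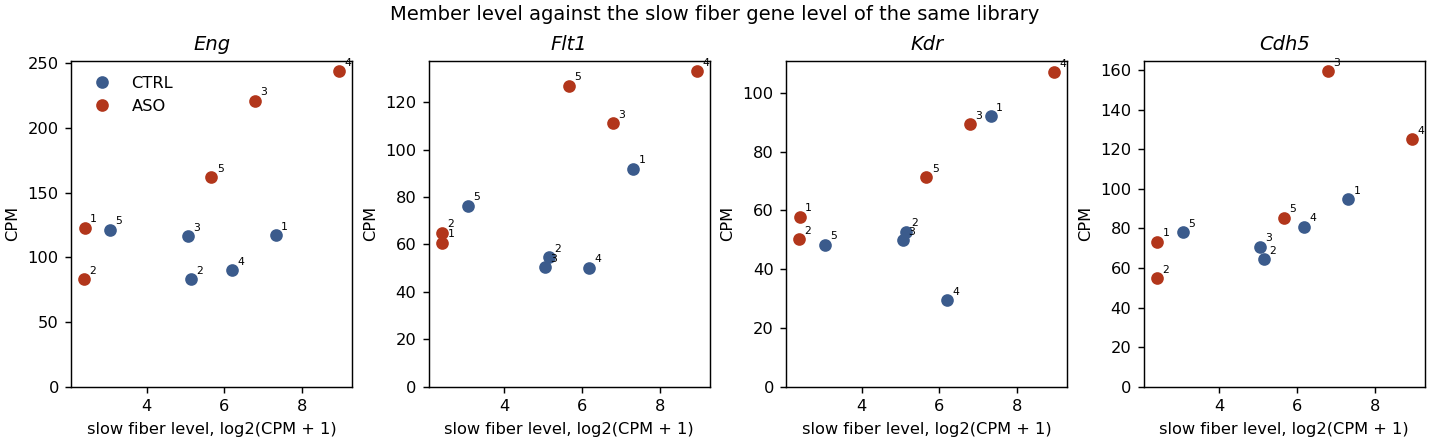
Level of Eng, Flt1, Kdr and Cdh5 in CPM (vertical axis from 0) against the mean log2(CPM + 1) of 9 slow fiber genes in the same library (horizontal axis), with CTRL in blue, ASO in red and replicate numbers. ASO 1 and 2 sit at 2.40 on the horizontal axis, and ASO 4 at 8.95 has the highest Eng, Flt1 and Kdr levels.

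Of the other ligands and receptors of the VEGF and angiopoietin families, 8 of 12 were tested and 0 passed (edgeR). DESeq2 and limma-voom called 0, and 1 had an unadjusted p under 0.05 in edgeR. Over all genes tested, 29.2% passed and 41.2% had an unadjusted p under 0.05 in edgeR. The largest values were Sema3f at -0.61 (a semaphorin that binds Nrp2, adjusted p = 0.19), Flt4 at 0.48 (VEGFR3, the receptor of lymphatic vessels, 0.28) and Plxnd1 at 0.42 (a semaphorin receptor of endothelial cells, 0.12). Angpt1, the ligand of Tek, had -0.24 (0.54), and the VEGF co-receptors Nrp1 and Nrp2 had 0.04 (0.92) and 0.10 (0.88). Vegfd at -0.05 (0.88) and Ptprb, the phosphatase that acts on Tek, at -0.06 (0.88) lay close to the median of all genes. Vegfc had 0 counts, and Pgf, Angpt2 and Sema3a had too few to be tested.

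In the list of regulators of Vegfa by oxygen, 2 of 7 tested genes were higher and 1 was lower, which is 42.9% called beside 29.2% of all genes. Egln1 and Hif1an, oxygen-dependent hydroxylases that restrain hypoxia-inducible factor, had log2 fold changes of 0.58 ± 0.20 and 0.57 ± 0.19 (SE, edgeR adjusted p = 0.042 and 0.045), and these calls were kept in 10 and 8 of 21 alternatives. Arnt, the partner of the HIF alpha subunits, fell by 2.01 on the log2 scale (SE 0.21, edgeR adjusted p = 0.00011). Its level went from 35.4 ± 8.16 to 8.72 ± 1.07 CPM (SD, n = 5), without overlap. The Arnt call was kept in 20 of the 20 alternatives in which it was tested. Most Arnt counts lay on a segment 1673 bp upstream of its distal end, and those of Egln1 and Hif1an lay at the distal end. Hif1a had 1 count and Vhl 12, too few to be tested, and Epas1 (HIF2 alpha, the form that endothelial cells favor) did not pass (0.14, adjusted p = 0.61).

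Downstream of the VEGF receptors, 2 of 15 tested genes were higher and 3 were lower, which is 33.3% called beside 29.2% of all genes. Mapkapk2, a kinase downstream of p38 that acts on the actin cytoskeleton, had 0.95 ± 0.19 (SE, edgeR adjusted p = 0.0029), and the small GTPase Rac1 had 0.51 ± 0.13 (0.011). The lower genes were the kinase Mapk3 at -0.85 (0.030) and the adaptors Grb2 at -0.58 (0.017) and Nck1 at -0.50 (0.026). These 3 lower genes were counted mainly 605 to 2710 bp upstream of their distal ends, and Rac1, which was higher, was counted 1848 bp upstream on a segment with 39 bases of its own. The calls were kept in 14 of 21 alternatives for Mapk3, in 12 of 20 for Nck1, and in 19 or more for the other 3 genes. All are expressed in muscle fibers and many other cells, so these values are not those of endothelial cells alone.

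In the list around endoglin, 3 of 11 tested genes were lower and the other 8 did not pass, which is 27.3% called beside 29.2% of all genes (17.4% lower). Tgfbr2, the type II TGF-beta receptor, fell by 2.50 on the log2 scale (SE 0.26, edgeR adjusted p = 0.00012), and nearly all its counts lay 4636 bp upstream of the distal end. Smad5, which carries BMP signals, had -1.20 ± 0.15 (SE, adjusted p = 0.00029), and Smad4, the shared partner, had -0.49 ± 0.13 (0.015), both counted mainly at the distal end. In the fit on the most distal segments, which leaves out their upstream ends, Smad5 had -0.65 (adjusted p = 0.043) and Smad4 had -0.30 (0.16), so the call of Smad4 was lost. The endothelial target genes of BMP signals Id1 (0.40, adjusted p = 0.48) and Id3 (0.30, 0.38) did not pass, nor did Smad6 (-0.05, 0.92) and Smad7 (0.22, 0.70). Eng's partner receptor Acvrl1 had 2 counts.

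Among 42 other endothelial markers, 30 were tested, 3 were higher and 3 were lower, which is 20% called beside 29.2% of all genes, and their median log2 fold change was 0.19. Sox18, a transcription factor of the embryonic endothelium, had 1.10 ± 0.26 (SE, edgeR adjusted p = 0.0088), Rasip1, which shapes vessel lumens, had 0.73 ± 0.18 (0.010), and Gpihbp1, which carries lipoprotein lipase across the capillary wall, had 0.64 ± 0.20 (0.029). Rasip1 lay between 9.33 and 11.9 CPM in CTRL and between 16.4 and 20.7 CPM in ASO, without overlap. Cd34, a surface sialomucin of endothelial and progenitor cells, was at 40.6 ± 17.5 CPM in CTRL and 5.73 ± 2.52 CPM in ASO (SD, n = 5), a log2 fold change of -2.80 (adjusted p = 0.00042). Ly6c1 (-1.0, 0.016) and the fatty acid transporter Cd36 (-0.88, 0.029), which muscle fibers also express, were the other lower ones. Cd34, Ly6c1 and Cd36 were counted mainly 2729, 1503 and 796 bp upstream of their distal ends, and Sox18 and Rasip1 at the distal end. Gpihbp1, which was higher, was counted mainly 1268 bp upstream on a segment with 46 bases of its own. In the fit on the most distal segments Gpihbp1 had 0.47 (edgeR adjusted p = 0.37). The calls of Gpihbp1 and Cd36 were kept in 13 and 15 of 21 alternatives, and those of the other 4 genes in 19 or more. In the fit on the most distal segments, 1 gene of this list stayed called higher (Sox18) and 1 lower (Cd34, whose only counted segment is the upstream one). Ly6c1 was not tested in that fit.

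**Figure D5:**
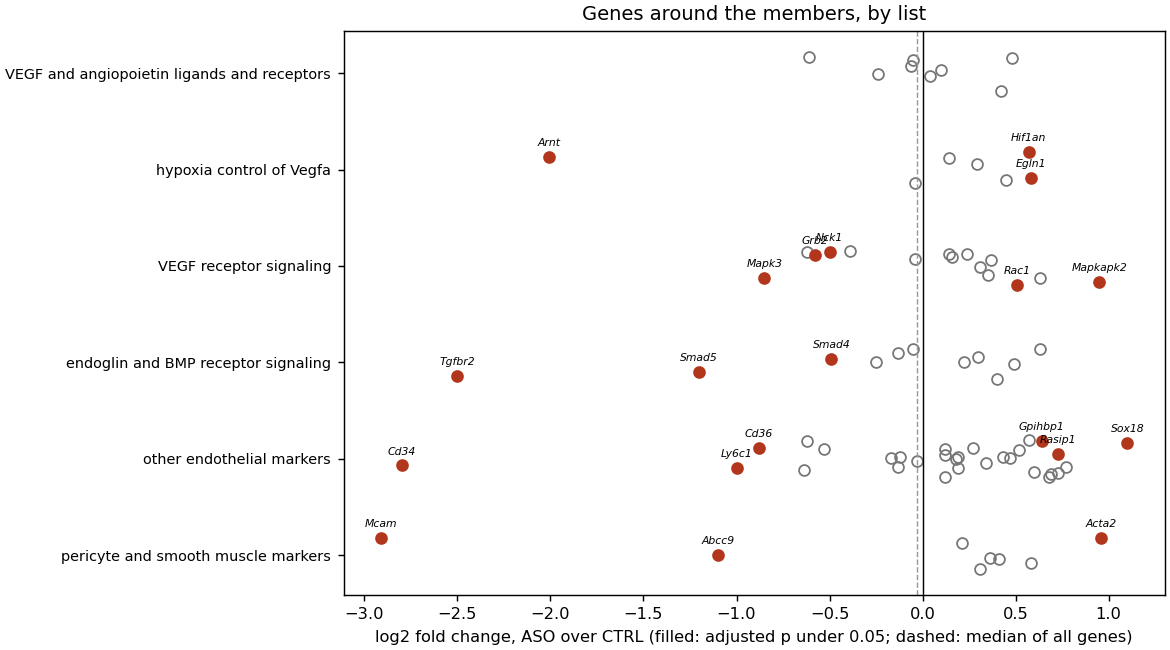
Log2 fold change of ASO over CTRL (horizontal axis) for the tested genes of 6 lists (rows), with genes called at an adjusted p under 0.05 filled and named and the median of all genes dashed. The genes called lower reach from Mcam at -2.91 to Smad4 at -0.49.

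Over these 5 lists and that of pericytes and smooth muscle, 12 genes were called lower and 8 higher. Of the 12 lower, 10 were counted mainly at least 500 bp upstream of their distal end and 2 at it. Of the 8 higher, 6 were counted mainly at the distal end. Over all genes tested, 689 of the 920 called higher and 358 of the 1363 called lower were counted mainly at the distal end. Pericytes wrap the capillaries, and of 8 tested markers Acta2 was higher (0.96, edgeR adjusted p = 0.039, kept in 12 of 21 alternatives) and Mcam (-2.91, 0.0030) and Abcc9 (-1.10, 0.0041) were lower. Of the cells that surround the vessels, beside the 11.8% of all genes called higher and 17.4% called lower, muscle fiber markers were called higher in 2 of 4 (Ckm and Actn3) and satellite cell markers in 1 of 4 (Cdh15). Fibro-adipogenic markers were called lower in 1 of 3 (Lum), macrophage markers in 1 of 5 (Mrc1) and blood markers in 1 of 5 (Pf4), and 0 of 4 adipocyte and 0 of 3 Schwann cell markers passed in edgeR (1 and 0 at an unadjusted p under 0.05, and 0 by DESeq2 and by limma-voom). The summed level of the blood markers was between 909.3 and 1477.8 CPM in CTRL and between 294.4 and 1728.0 CPM in ASO. That of the muscle fiber markers was between 40605.7 and 79770.1 CPM in CTRL and between 84651.5 and 130024.3 CPM in ASO, without overlap, and its part in the values of the members, which are shares of the same total, was not tested.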

How the data were processed

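Per the labels and the study's methods, polyA RNA of gastrocnemius with a RIN above 7 was made into stranded libraries and sequenced as paired ends. The authors used fastp for trimming, STAR for alignment (GRCm39) and featureCounts for read pairs (Gencode M25), and kept the last 500 bp of 3′UTRs. The deposited values are unnormalized counts per transcript segment. The strand option is not given in the sources used here. A further 4 per-sample columns, which match no label, were not used.

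Of 52423 segments, 52361 matched GENCODE M39 and were summed per gene, and the 62 others hold 0.0197% of counts. Of the matched ones, 52360 lie within their M39 transcript. Genes and segments were tested with edgeR 4.0.16 (TMM, filterByExpr, quasi-likelihood, Benjamini-Hochberg over all features, threshold 0.05) in R 4.3.3. Alternatives were DESeq2 1.42.0, limma-voom (limma 3.58.1), other scalings and filters, the replicate number as a block, the most distal segment with bases of its own, libraries drawn down to 1606491 counts, and each library left out. Levels are TMM-scaled CPM. Ratios use counts with 0.5 added. Single values were compared with two-sided exact permutation tests over 252 labellings, in Python 3.11.15 with scipy 1.17.1. The fits and the permutation test were tested on simulated data. The labels name separate samples but not that each is a separate mouse; p-values measure the spread between these samples.

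The members and gene lists were chosen with earlier results of these data known. Genes named are the members, list genes called in the fit (up to 8 per list by adjusted p), tested VEGF and angiopoietin ligands and receptors, and the 5 genes of most like pattern, while other list genes were named after their values were seen. From the list of VEGF receptor signaling, 2 genes are not reported here.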

Additional observations from a re-analysis of the deposited data

Results flagged for a closer look

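Within groups of 5 libraries, 3 values stood apart from the rest of their group by Dixon's test at the 95% level, among 30 groups examined, and chance flags about 1 in 20. Vwf in CTRL 2 was at 10.7 CPM while the other CTRL libraries lay between 18.4 and 20.8 CPM. The log2 ratio of Vegfa to Vegfb in ASO 3 was 4.81, above 3.50 to 3.86 in the other ASO libraries, and that library had both the highest Vegfa level (516.4 CPM) and the lowest Vegfb level (18.2 CPM). The proximal end of Flt1 in CTRL 5 was at 23.2 CPM, with the other CTRL libraries between 10.7 and 12.4 CPM. Leaving out ASO 3 turned the Vegfa to Vegfb difference from 0.11 to -0.12, and leaving out CTRL 2 did not bring Vwf past the threshold.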

How the results depend on the processing

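Of the members, 1 was called higher by DESeq2, with upper-quartile scaling and with the slow fiber level as a covariate, a fit chosen after the data had been seen (Eng each time). When a library was left out, 0 to 2 were called higher. In the other alternatives 0 were called higher, and none was called lower in any. On the most distal segments, Eng, Tek and Vwf were not tested, since those segments held 8, 0 and 0 counts. Signs turned for Vwf with upper quartile (0.03) and with libraries drawn down (0.08), for Vegfb with upper quartile (0.04), and for Vegfa with total counts (-0.11, and -0.12 for its segment) and the most distal segments (-0.20). With a library left out, the log2 fold change ran from -0.36 to 0.14 for Vwf (-0.29 to 0.22 for its segment), from -0.05 to 0.20 for Vegfa and from -0.11 to 0.09 for Vegfb (-0.07 to 0.14 for its segment). The differences in ratios ran from 0.64 to 0.99 for Tie1 over Tek, from -0.83 to -0.42 for the Flt1 ends, from -0.03 to 0.20 for Flt1 over Kdr and from -0.12 to 0.22 for Vegfa over Vegfb. Other endothelial markers called higher numbered 5 with upper quartile and 1 on the most distal segments, where 1 was lower, and 2 to 5 without a library. Hypoxia genes called higher numbered 1 with limma-voom, the replicate block and drawn-down libraries, and 0 to 3 without a library. They numbered 0 with total counts, no filter and the most distal segments. On the most distal segments Arnt was not tested, and 0 hypoxia genes were called lower. VEGF and angiopoietin genes called ran from 0 to 1 in each direction without a library. The causes were not tested. Total counts moved the median of all genes by -0.18, and genes called over the table then numbered 528 higher and 1819 lower, beside 920 and 1363. The most distal segments gave 318 and 503 of 5528 genes. In that fit Cdh5, Kdr, Tie1, Vegfa and Vegfb had the same counts as in the main fit, and the scaling and the other genes differed.

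Libraries share a replicate number, and the sources used here describe no pairing. The correlations of same-numbered deviations were -0.43, 0.06, 0.05, 0.06 and 0.16, which alone cannot show whether libraries were paired. With the replicate block 0 members were called (Eng 0.57, adjusted p = 0.094, Flt1 0.59, 0.15), and 662 genes were higher and 1172 lower. With 12 to 72 counts per library, Tek, Tie1 and Vwf are the members for which depth limits the comparison most.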
